A study of Oryza sativa with 6 samples.

Results

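The 42 entries described here were induced in rice roots after 2 d of water deficiency (WD) and stood lower again after 3 d. They were chosen by their own FPKM values (fragment counts scaled by transcript length and by the mapped fragments of the library) in control roots, after 2 d and after 3 d, out of 63985 entries in the deposited tables, of which 58337 name a rice locus. An entry had to name a locus, exceed 8 FPKM at 2 d and 0 FPKM in control, reach at least 1.5 times the control value at 2 d, and fall to at most 0.67 of the 2 d value at 3 d. The rule left out any entry that combined 4 FPKM or less in control with over 8 FPKM at 3 d, and any still at least 3 times the control at 3 d. It covered the first stretch of 7 of the 12 chromosomes, where locus names are seldom repeated. The last entries within the limits start at base 10018751 of chromosome 1, 5924719 of chromosome 2, 4861233 of chromosome 3, 7279331 of chromosome 5, 10973965 of chromosome 6, 11101601 of chromosome 8 and 5060222 of chromosome 12, as the tables list them on the IRGSP 1.0 build. Of 8457 entries naming a locus in these stretches, 1745 passed both FPKM limits and are called eligible below. Because the same values chose the members, their rise and fall are given as a description and carry no test.

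The plants were 4-week-old seedlings of the japonica rice cultivar Chilbo grown in soil in pots. Roots came from continuously watered plants (control) and from plants whose irrigation had been withheld for 2 d or 3 d, with 2 libraries for each of the 3 groups. The same control group serves for both times, and the day of its harvest is not given for these libraries. A difference in plant age or harvest day between the groups therefore cannot be told apart from WD. Each table gives 1 FPKM per entry and group, pooled over its libraries by the authors, so the spread between libraries and the read depth of each are unknown and no difference below has a replicate check. Over 7714 entries above 8 FPKM in all groups, the median ratio to control was 1.10 at 2 d (0.13 on the log2 scale) and 1.14 at 3 d (0.19), so a rise at 2 d is to be read against a small general shift. The root label was not checked against marker genes, since no source used here gives a name to the marker loci considered. Fewer cells of a type and less RNA per cell cannot be told apart in whole roots.

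When soil dries, roots take up less water while abscisic acid and other signals change the activity of many genes. Some of these genes keep a raised level as long as the stress lasts, and others are raised only for a time. Products known from drying plant tissue include proton pumps that load the vacuole, enzymes that supply sugars and sugar alcohols as solutes, nutrient transporters, and transcription factors such as those of the NAC family.

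At 2 d, the members held between 8.36 and 248 FPKM, with a median of 26.8 FPKM. Their median was 9.23 FPKM in control and 12.3 FPKM at 3 d. The ratio of 2 d to control ran from 1.5, the limit of the rule, to 5.86 with a median of 2.08, and the ratio of 3 d to 2 d from 0.206 to 0.669 with a median of 0.549. At 3 d the members had a median ratio to control of 1.10, and a median of 9.45% of the rise at 2 d was still present. Both of these values depend on the limits of the rule. Members at least 2-fold up at 2 d numbered 22, of which 5 were over 4-fold, and 18 members fell to 0.5 or less of their 2 d value. The other 20 rose by less than 2-fold. Of the 516 eligible entries at least 1.5 times the control at 2 d, 283 rose at least 2-fold. The median ratio of 2 d to control over these 516 was 2.10, so the size of the rise does not set the members apart. The depth of the fall is bounded by the rule. Over 100 FPKM at 2 d were 4 members, and 16 stayed under 20 FPKM.

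**Figure D1:**
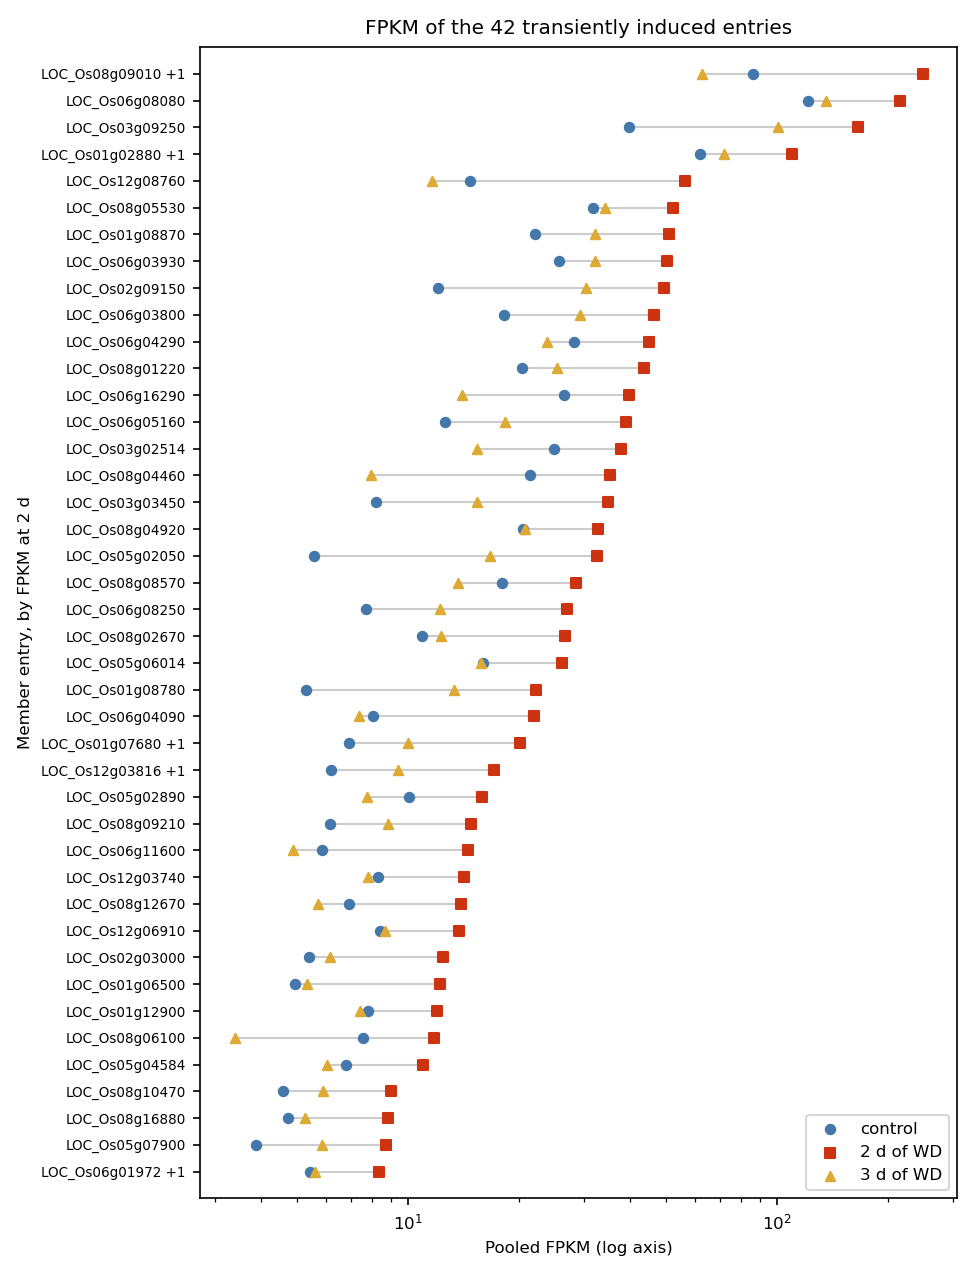
Pooled FPKM (log axis) of each of the 42 member entries in control (circles), after 2 d of WD (squares) and after 3 d of WD (triangles), ordered by the 2 d value; each point is 1 value pooled over 2 libraries, and "+1" marks a further locus in the entry. The 2 d values run from 8.36 to 248 FPKM, and the triangle lies left of the circle in 16 entries.

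The profile was uncommon among eligible entries. At 2 d, 516 of the 1745 entries (29.6%) were at least 1.5 times the control, against 35.6% at 3 d. Of these 516, 385 (74.6%) kept between 0.67 and 1.5 times their 2 d level at 3 d, 77 (14.9%) rose by a further 1.5-fold or more, and 54 (10.5%) fell to 0.67 or less. The limits on low control values and on the 3 d level removed 12 of the 54, which left the 42 members, or 2.41% of the eligible entries.

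A fall to 0.67 or less from 2 d to 3 d was also found outside the induced entries. Its share was 12.9% of all eligible entries, beside the 10.5% of those induced. It was 8.31% of the 963 entries between 0.67 and 1.5 times the control at 2 d, and 34.2% of the 266 entries already at 0.67 of control or less. The mirror profile, a fall to 0.67 or less at 2 d followed by a rise of 1.5-fold or more, was held by 25 of 550 entries (4.55%) that were over 8 FPKM in control and down at 2 d. The 2 d value enters both ratios of the rule, above in the first and below in the second, so a 2 d value that is too high by error alone moves an entry toward membership; how many members this concerns was not tested.

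**Figure D2:**
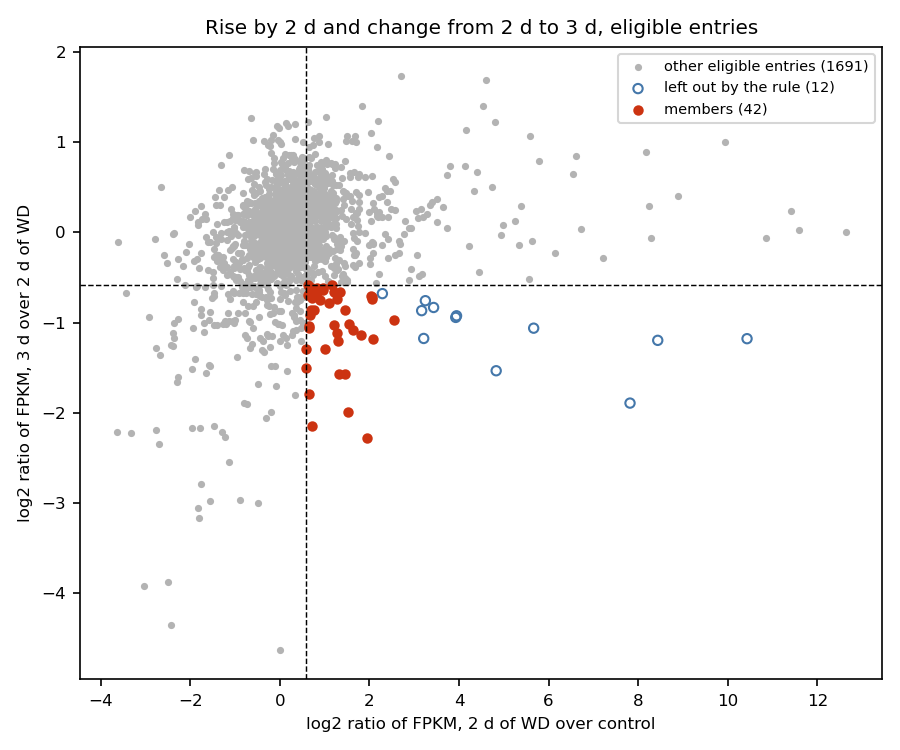
The log2 ratio of FPKM at 2 d of WD over control (horizontal) against the log2 ratio at 3 d over 2 d (vertical) for the 1745 eligible entries; dashed lines mark the limits of 1.5 and 0.67. The 42 members (filled) and the 12 entries left out by the further limits (open) lie to the lower right of both lines, while 385 of the 516 entries right of the vertical line keep between 0.67 and 1.5 times their 2 d level.

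By their level at 3 d the members fell into 3 ranges. The ratio of 3 d to control is the product of the 2 ratios that the rule limits. A member with less than a 2-fold rise could therefore not be more than 1.5-fold above control. The split describes the members and does not measure how far induced genes return. In 29 of them (69.0%) the 3 d value was within 1.5-fold of control, in 9 it was still more than 1.5-fold above, and in 4 it was more than 1.5-fold below. The 3 d value was lower than control in 16 members. The 5 members with the largest rise all belong to the 9 that were still above control. A larger rise favours that range by the same product, so this is no separate finding.

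**Figure D3:**
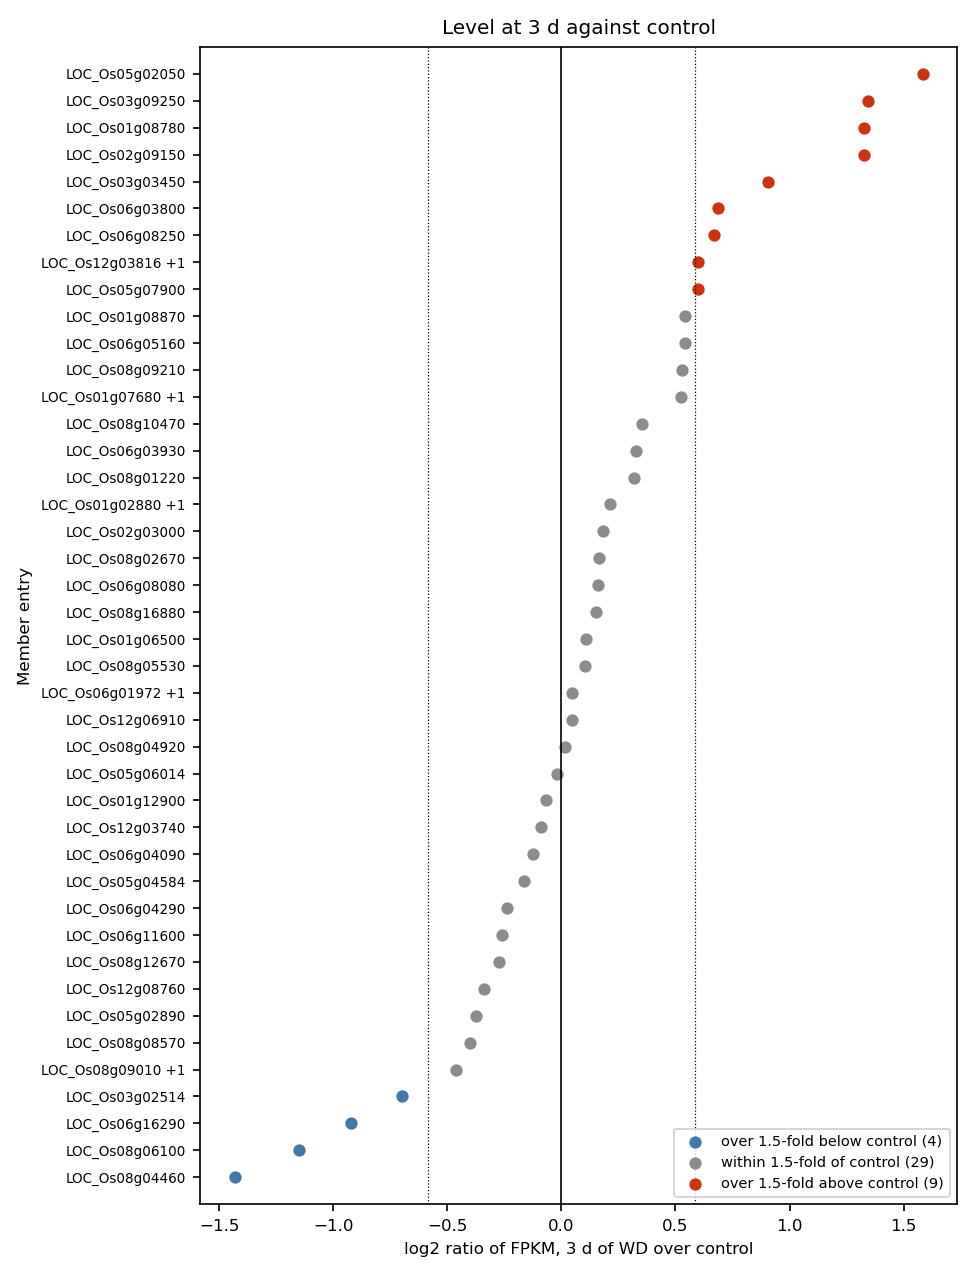
The log2 ratio of FPKM at 3 d of WD over control for each member, ordered by that ratio, with dotted lines at 1.5-fold in either direction. The 3 ranges hold 9, 29 and 4 entries, and the highest ratio, that of LOC_Os05g02050, is just below the limit of 3 set by the rule.

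Descriptions of the loci come from the gene annotation that the study's supplementary tables repeat, and 20 members (47.6%) have such a description. The share was 50.4% of the entries up at 2 d and 28.5% of all eligible entries. Those tables were themselves drawn up from changes in these data, so described loci lean toward larger changes. Of the 22 members that rose at least 2-fold 18 are described, against 2 of the 20 that rose less.

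LOC_Os03g09250 encodes inositol-3-phosphate synthase, which turns glucose phosphate into inositol phosphate, the entry to inositol, phytate and galactinol-derived sugars. It lies on chromosome 3 from 4824694 to 4829747 and stood at 39.6 FPKM in control, 166 FPKM at 2 d and 101 FPKM at 3 d. It had the highest 2 d level of any described member, rose 4.18-fold and was 2.54 times the control at 3 d.

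LOC_Os03g03450 is described as a chloroplast anthranilate phosphoribosyltransferase, an enzyme of tryptophan synthesis. Listed on chromosome 3 from 1483731 to 1490669, it went from 8.19 FPKM in control to 34.9 FPKM at 2 d and 15.3 FPKM at 3 d, a 4.26-fold rise followed by a ratio of 0.440. A later enzyme of the same pathway, the tryptophan synthase beta chain of LOC_Os08g04180, is no member. It stood at 41.3 FPKM in control, 262 FPKM at 2 d and 245 FPKM at 3 d. Both of these enzymes were induced at 2 d, but the 3 d level was 0.440 of the 2 d level in the former and 0.933 in the latter.

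LOC_Os08g09210 encodes phosphoribosylamine--glycine ligase, an enzyme of purine synthesis. Its values were 6.13 FPKM in control, 14.8 FPKM at 2 d and 8.86 FPKM at 3 d.

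LOC_Os12g08760 had the steepest fall of all members. Its description, carboxyvinyl-carboxyphosphonate phosphorylmutase, is the name of an enzyme of antibiotic synthesis in Streptomyces bacteria. The entry, on chromosome 12 from 4486547 to 4503990, stood at 14.7 FPKM in control, 56.3 FPKM at 2 d and 11.6 FPKM at 3 d. It rose 3.83-fold and then fell to 0.206 of the 2 d level, under its control value.

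The only described members more than 1.5-fold below control at 3 d were LOC_Os08g04460 and LOC_Os08g06100. LOC_Os08g04460, with a NADPH-dependent FMN reductase domain found in flavin reductases, stood at 21.5 FPKM in control, 35.2 FPKM at 2 d and 7.96 FPKM at 3 d. At 0.371 of control it had the lowest 3 d ratio of the members. LOC_Os08g06100, an O-methyltransferase, a class of enzyme that adds methyl groups to phenolic and other small molecules, went from 7.54 FPKM to 11.8 FPKM and 3.40 FPKM. A further entry of the name LOC_Os08g06100 was far higher and did not rise at 2 d, at 351, 250 and 78.1 FPKM. LOC_Os08g04460 and LOC_Os08g06100 were also the only described members with less than a 2-fold rise.

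Membrane transport was represented by a proton pump and a sulfate carrier. LOC_Os02g09150 encodes an inorganic H+ pyrophosphatase, a pump that uses pyrophosphate to move protons, in plants mainly into the vacuole. On chromosome 2 from 4693809 to 4699546, it stood at 12.1 FPKM in control, 49.2 FPKM at 2 d and 30.3 FPKM at 3 d, so that it was 4.08 times the control at 2 d and 2.51 times at 3 d. LOC_Os06g05160, a sulfate transporter on chromosome 6 from 2291571 to 2298805, went from 12.6 FPKM in control to 38.8 FPKM at 2 d and 18.3 FPKM at 3 d. A further described sulfate transporter, LOC_Os03g06520, had the same order of values at 9.13, 139 and 72.3 FPKM, but its 3 d level was 7.92 times the control and the rule left it out. The ratio of 3 d to 2 d was 0.471 for LOC_Os06g05160 and 0.521 for LOC_Os03g06520.

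LOC_Os05g02050 encodes a Tim subunit of the mitochondrial inner membrane import machinery. This short entry of 351 bp, on chromosome 5 from 599359 to 599710, had the largest rise of all members. It stood at 5.56 FPKM in control, 32.5 FPKM at 2 d and 16.7 FPKM at 3 d, with a ratio of 5.86 at 2 d and of just under 3 at 3 d. Its listed span is the shortest of the members, whose median is 6494 bp. At a given FPKM a short entry rests on fewer fragments, and how far this affects its ratios was not tested.

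LOC_Os06g04090, on chromosome 6 from 1698278 to 1702859, carries the no apical meristem (NAC) domain, which defines a plant family of transcription factors with members active in development and in drought responses. It went from 8.06 FPKM in control to 22.0 FPKM at 2 d and 7.39 FPKM at 3 d, a 2.73-fold rise and a full return. The other described NAC entry among those eligible, LOC_Os12g03040, had 5.25 FPKM in control, 10.8 FPKM at 2 d and 13.6 FPKM at 3 d, a ratio of 3 d to 2 d of 1.26 that lies within the limits of 0.67 and 1.5. The zinc finger family protein of LOC_Os06g08250 stood at 7.70 FPKM in control, 26.9 FPKM at 2 d and 12.3 FPKM at 3 d. The 3 other zinc finger family proteins of this description among the eligible entries did not share its order of values. LOC_Os05g05280 stood at 19.4, 44.7 and 51.1 FPKM, with a ratio of 3 d to 2 d of 1.14. LOC_Os05g03760 was lower at each later time, at 201, 64.6 and 22.0 FPKM. The same order was seen in LOC_Os08g02850, at 47.0, 27.3 and 18.4 FPKM.

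LOC_Os01g08780 belongs to the endonuclease/exonuclease/phosphatase family, whose fold cleaves phosphate bonds in nucleic acids, lipids and inositol phosphates. Its values were 5.30 FPKM in control, 22.2 FPKM at 2 d and 13.3 FPKM at 3 d. LOC_Os08g01220 has the domain of harpin-induced protein 1, a membrane-associated family named after a tobacco gene that responds to a bacterial elicitor. It went from 20.3 FPKM to 43.5 FPKM at 2 d and 25.3 FPKM at 3 d. LOC_Os06g03800, a pollen ankyrin, has repeats that serve in contacts between proteins and stood at 18.2, 46.4 and 29.3 FPKM. Other eligible entries described as ankyrins had another order of values. LOC_Os05g01310 was higher at each later time, at 17.9, 40.5 and 47.3 FPKM, and LOC_Os08g15840 was lower, at 60.1, 16.5 and 10.8 FPKM.

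For the remaining described members the annotation gives little. LOC_Os06g11600, described as growth regulator related, went from 5.84 FPKM in control to 14.5 FPKM at 2 d and 4.89 FPKM at 3 d. The entry of the same description, LOC_Os12g07540, stood at 6.53, 12.9 and 15.8 FPKM, with a ratio of 3 d to 2 d of 1.22. The ATP binding protein of LOC_Os08g02670 stood at 10.9, 26.6 and 12.3 FPKM, and the division protein of LOC_Os02g03000 at 5.41, 12.5 and 6.15 FPKM. The 3 described only as expressed proteins, LOC_Os01g08870, LOC_Os01g07680 and LOC_Os08g12670, reached 50.8, 20.1 and 13.9 FPKM at 2 d and were at 1.46, 1.44 and 0.827 times the control at 3 d.

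The 22 members without a description include 3 of the 4 with the highest levels. The entry naming LOC_Os08g09010 and LOC_Os08g09040, on chromosome 8 from 5241501 to 5255230, had the highest 2 d value. It went from 86.0 FPKM in control to 248 FPKM at 2 d and 62.5 FPKM at 3 d, a 2.88-fold rise and then a fall to 0.252 of the 2 d level. LOC_Os06g08080, on chromosome 6 from 3918532 to 3927945, had the highest control value and returned close to it, with 121, 216 and 135 FPKM. The entry naming LOC_Os01g02880 and LOC_Os01g02884 behaved likewise at 61.7, 110 and 71.6 FPKM.

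Below control at 3 d by more than 1.5-fold were LOC_Os06g16290, at 26.5, 39.7 and 14.0 FPKM, and LOC_Os03g02514, at 24.9, 37.7 and 15.4 FPKM. Both sit at the edge of the rule, with ratios to control of just over 1.5 and 1.51 at 2 d. Neither of them, nor LOC_Os08g04460 or LOC_Os08g06100, met the rule once the groups were scaled to their median ratio. Among the undescribed members only 2, the entries naming LOC_Os12g03816 and LOC_Os05g07900, were more than 1.5-fold above control at 3 d, both at 1.51 times. The 15 not yet named by their values ran from 8.36 to 52.1 FPKM at 2 d and lay between 0.757 and 1.28 times the control at 3 d.

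The words of the descriptions sorted 497 eligible entries into lists. The list of transcription factors and zinc fingers holds 29, of which 15 were up at 2 d and 2 were members. Of 11 phosphatase entries, a list that by its wording takes in the H+ pyrophosphatase and the endonuclease/exonuclease/phosphatase family protein, 5 were up and 2 were members. Transporters had 1 member among 7 entries up, and redox and detoxification genes 1 among 14. The lists of kinases and receptors (14 up), ubiquitin and proteasome (8), chaperones (5), RNA and translation (14), sugar and cell wall (2), lipids (4), hormones (2), proteases and inhibitors (3) and transposons (6) held 0 members, and calcium signalling had 0 entries up. Expressed or hypothetical proteins gave 3 members among 55 up, and other described genes 11 among 106. For comparison, 42 of all 516 entries up (8.14%) were members, and the small lists allow no statement about any of them.

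All 12 entries that the rule left out stood at least 3 times above control at 3 d, and together with the limit on the fall this sets a minimum on their rise at 2 d, so their size of rise is no finding. Enolase, the glycolytic enzyme of LOC_Os06g04510, went from 15.8 FPKM in control to 243 FPKM at 2 d and 128 FPKM at 3 d. The stress responsive protein of LOC_Os01g01450 stood at 59.3, 641 and 360.0 FPKM. The sucrose-phosphatase of LOC_Os02g05030, which completes sucrose synthesis, was at 15.6, 76.5 and 47.8 FPKM and was left out with a 3 d ratio of 3.06, while the nearest member, LOC_Os05g02050, was just under 3. LOC_Os02g02400, listed among the study's primers as the catalase gene OsCAT1, missed the limit on the fall with a ratio of 0.681, at 153, 329 and 224 FPKM. Catalase breaks down hydrogen peroxide. The members nearest to that limit, LOC_Os05g07900 and the entry naming LOC_Os06g01972, had ratios of 0.669. Nearest outside the limit on the rise was LOC_Os02g01332 at 1.44 times the control, with 99.5, 144 and 71.8 FPKM. Nearest below 8 FPKM at 2 d was LOC_Os12g05320 at 2.42, 7.86 and 4.96 FPKM.

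Position on the chromosome played no part in the rule beyond the limits of the stretches. Chromosome 8 held 12 members among 244 eligible entries (4.92%) and chromosome 6 held 10 among 299 (3.34%). The shares were 3.31% on chromosome 12, 1.98% on chromosome 5, 1.80% on chromosome 1, 1.40% on chromosome 3 and 0.709% on chromosome 2. Over all eligible entries the share was 2.41%, and differences between chromosomes were not tested. The members had 82 eligible entries next to them, each counted once. Of these, 25 (30.5%) were up at 2 d, close to the 29.6% of all eligible entries. A fall to 0.67 or less from 2 d to 3 d was seen in 10 (12.2%), close to the 12.9% of all eligible entries. None of the neighbours was a member, but with 2.41% members among all eligible entries, 82 neighbours are too few for a statement. In 1 neighbour, against 54 of the 1745 eligible entries, the value both rose and fell. This neighbour was LOC_Os08g04540, which starts 74145 bp from LOC_Os08g04460 and stood at 0.226, 78.4 and 34.2 FPKM. The span of the members' listed coordinates, with a median of 6494 bp, was near that of all eligible entries at 6551 bp.

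Some members share their name or place with a further entry. In 6 of the 42 (14.3%) another entry carries the same locus name, against 6.93% of eligible entries and 48.0% of the entries outside the stretches above the same FPKM limits. For LOC_Os08g06100 this other entry is far higher and did not rise, at 351 FPKM in control, 250 FPKM at 2 d and 78.1 FPKM at 3 d. Both entries of this O-methyltransferase fell by 3 d, but only the minor entry had a maximum at 2 d. For LOC_Os06g04290 the member stood at 28.2, 45.1 and 23.9 FPKM and the second entry, which also names LOC_Os06g04300, at 8.44, 9.09 and 11.6 FPKM. In LOC_Os06g11600, LOC_Os08g05530, LOC_Os08g08570 and LOC_Os08g16880 the second entry was under 0.3 FPKM in every group.

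**Figure D4:**
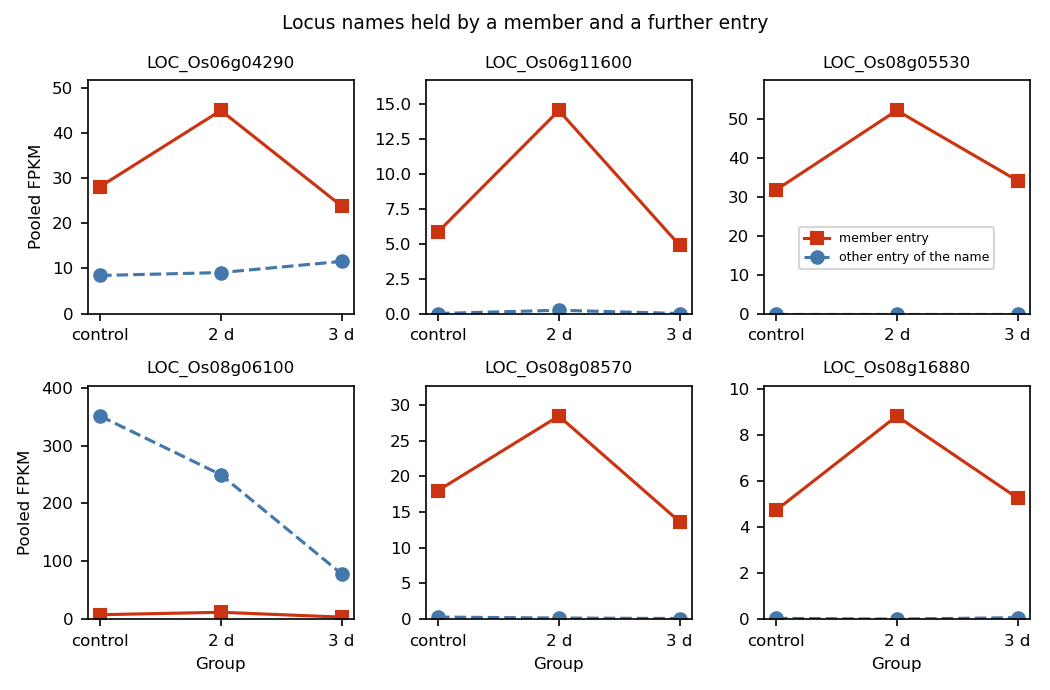
Pooled FPKM in control, at 2 d and at 3 d of WD for the 6 locus names held by a member entry (squares, solid line) and by a further entry (circles, dashed line); each panel has its own axis from 0. The further entry is the larger in LOC_Os08g06100 alone, where it falls from 351 to 78.1 FPKM.

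Listed coordinates were shared with another entry by 18 members (42.9%), against 37.4% of eligible entries, so a listed place need not be the extent of the entry itself. LOC_Os06g04280, at the coordinates of LOC_Os06g04290, had the same order of values at 58.9, 80.2 and 44.0 FPKM. At the coordinates of LOC_Os01g08870, both other eligible entries kept their 2 d level, LOC_Os01g08850 with 5.06, 34.8 and 34.5 FPKM and the entry naming LOC_Os01g08860 with 14.1, 34.9 and 32.7 FPKM.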

How the data were processed

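The paired-end reads were trimmed by the authors with Cutadapt and Trim Galore, checked with FastQC and mapped with TopHat to IRGSP 1.0, and gene features came from the RGAP annotation, with no versions stated in the sources read for this work. The deposited FPKM are 1 value per entry and group from Cuffdiff, pooled over 2 libraries, so depth is unknown. The fold change, test statistic, p and q columns hold the study's own comparisons and were not used. Coordinates are as listed in the tables. Control values and the 2 d and 3 d values were the same wherever the tables repeat them. Ratios were formed without a pseudocount and no test was run, since the values that chose the members are the values described. Members, lists and limits were chosen with earlier results of these data known. The members named are the 12 with the highest ratio at 2 d, the 12 with the highest FPKM at 2 d, the 8 with the lowest ratio of 3 d to 2 d, the 8 with the lowest ratio of 3 d to control, the 3 highest in each list of description words, loci the study names, and the 2 entries on either side of each limit; not all were printed. The other described members, and entries related to a member by description, name or place, were added after their values were seen. The reference list (39387 rows, another assembly) held 0 of the 47 member loci. In simulated data without noise, the rule found 200 of 200 entries planted inside its limits among 1400. This checks only that the rule was coded as stated, not how it performs on measured values. Python 3.11.15, pandas 2.3.3 and numpy 2.4.6 were used.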

Additional observations from a re-analysis of the deposited data

How the results depend on the processing

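Each of 6 values (the number of members, their median ratios, the percentage within 1.5-fold of control at 3 d and the share of induced entries that are members) was recomputed under 11 alternatives. With no replicate spread, a count or ratio was taken to have moved beyond 1.5-fold and a percentage outside its 95% Wilson interval. By these limits 60 of 66 values had not moved, which is no measure of robustness. The interval treats the chosen entries as independent draws, and the rule itself bounds the median ratios. In addition, 1 alternative left the 42 members and the 516 induced entries unchanged. The 42 members became 27 with over 16 FPKM at 2 d, 22 with a 2-fold rise, 18 with a fall to 0.5 and 222 over all positions, by construction. Also by construction, the fall to 0.5 lowered the members' share of induced entries from 8.14% to 3.49%. Keeping the left-out entries, all at least 3 times the control at 3 d, lowered the percentage near control from 69.0% to 53.7%. Scaling each group to its median ratio gave 33 members, of which 27 were among the 42. LOC_Os08g04460, LOC_Os08g06100 and 13 undescribed members were not kept by it. Only 6 members met the rule under all 11 alternatives, and these are LOC_Os03g03450, LOC_Os06g04090, LOC_Os06g05160, LOC_Os06g08250, LOC_Os08g02670 and LOC_Os12g08760. Several alternatives only tighten limits on the values that chose the members, so this does not show the 6 to be more reliable. The entries naming LOC_Os08g09010 and LOC_Os01g07680 failed only the alternative without entries listing several loci. No paired analysis was possible because the tables pool both libraries of a group into 1 FPKM, and for the same reason no replicate could be left out. Promoter motifs were not searched, as no promoter sequences were used here. The unknown depth limits every value near 8 FPKM.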
